A study of Vitis vinifera with 8 samples.

Results

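Tonoplast intrinsic proteins (TIPs) are the aquaporins of the vacuolar membrane. The data analysed here hold 4 grapevine genes that the RefSeq gene table names as TIPs, of 25771 genes listed for each library: TIP1;1 (gene ID 100233003), TIP1;2 (100233004), TIP2;1 (100233028, with the synonym delta-TIP) and TIP4 (100252631, which the table lists under a placeholder symbol with TIP4 as its synonym). TIP2;1 is called delta-TIP from here on. They were chosen by name, with earlier results of these data known. All 4 passed the filter on low values described further on, TIP4 through the pre-véraison libraries alone.

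The vacuole fills most of a berry flesh cell and holds its sugars, organic acids and, in coloured tissue, anthocyanins. TIPs let water cross its membrane quickly, so that the cytoplasm and the vacuole stay in osmotic balance while the cell swells or shrinks. In Arabidopsis, TIP1 proteins (the gamma type) are the common water channels of vegetative vacuoles and TIP2 proteins (the delta type) also carry ammonia, while TIP4 proteins can carry urea. Their close relatives in the plasma membrane, the PIPs, control the entry of water into the cell itself.

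Berries came from microvines, dwarf grapevines derived from the L1 cell layer of Pinot Meunier, and had been freed of seeds. As background, such plants carry an allele that makes them insensitive to gibberellin, and this holds for every library, the unheated ones included. Post-véraison berries (12 to 14 weeks after flowering) at 38 °C, post-véraison berries at 16 °C, pre-véraison berries (5 to 6 weeks) at 38 °C and pre-véraison berries at 16 °C each gave 2 libraries, which the series design calls biological replicates. At véraison the berry turns from a green, firm fruit into a soft, coloured one that stores sugar. Unheated berries were picked at 9 AM and heated ones at 10 AM, 1 hour after the growth room was set to 38 °C. Heat and the hour of the day therefore cannot be told apart in any comparison of temperatures.

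Values are RPKM (reads per kilobase of gene and per fixed number of reads of the library), a unit in which levels of different genes may be compared. The RPKM denominators of the libraries, worked out from the values, were 6047199 to 11243341 reads. Which reads the authors counted in them was not given. Both the stages and the heat treatment showed in their markers. The ripening gene GRIP22 averaged 458 RPKM in heated and 489 RPKM in unheated post-véraison berries, against 0.19 and 0.62 RPKM in heated and unheated pre-véraison berries. The chaperone gene HSP101 averaged 55.4 RPKM in heated and 5.60 RPKM in unheated post-véraison berries, and 1010 RPKM in heated and 6.73 RPKM in unheated pre-véraison berries. Seed storage genes carry no symbol in the gene table used, so the removal of seeds was not checked. In post-véraison libraries the reads of the top 10 genes came to 23.9 to 26.6% of the RPKM denominator, in pre-véraison libraries to 7.80 to 11.7%. A smaller share was thus left for all other genes after véraison.

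The level of each TIP was examined first. TIP1;2, a gamma-type water channel, was the most abundant of the 4 TIPs in every library. It had 137 and 155 RPKM in post-véraison berries at 38 °C, 165 and 237 RPKM in post-véraison berries at 16 °C, 388 and 456 RPKM in pre-véraison berries at 38 °C, and 384 and 472 RPKM in pre-véraison berries at 16 °C. All 4 post-véraison libraries lay below all 4 pre-véraison libraries, and the heated and unheated pre-véraison values overlapped. Its mean stood in place 489 of the 25771 genes in heated post-véraison berries, 327 in unheated post-véraison berries, 186 in heated pre-véraison berries and 144 in unheated pre-véraison berries.

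Delta-TIP came next in every library. It had 46.5 and 42.8 RPKM in post-véraison berries at 38 °C, 50.8 and 35.7 RPKM in post-véraison berries at 16 °C, 320.3 and 358 RPKM in pre-véraison berries at 38 °C, and 236 and 253 RPKM in pre-véraison berries at 16 °C. The heated pre-véraison libraries were the highest and did not overlap with the unheated ones, whereas the post-véraison libraries of both temperatures overlapped.

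TIP1;1, the other gamma-type gene, followed it. It had 8.39 and 8.65 RPKM in post-véraison berries at 38 °C, 13.5 and 8.68 RPKM in post-véraison berries at 16 °C, 96.8 and 89.0 RPKM in pre-véraison berries at 38 °C, and 67.0 and 72.0 RPKM in pre-véraison berries at 16 °C. No groups overlapped, but replicate 2 of the unheated post-véraison berries stood next to the heated libraries.

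TIP4 was the lowest TIP throughout. It had 15.3 and 15.1 RPKM in pre-véraison berries at 38 °C and 9.90 and 13.0 RPKM in pre-véraison berries at 16 °C. After véraison it had 1 read in replicate 1 of the heated berries (0.0917 RPKM) and 1 read in replicate 2 of the unheated berries (0.0771 RPKM), and 0 reads in the other libraries of that stage. A count of 0 allows up to 0.26 RPKM in the heated library and 0.32 RPKM in the unheated one, at 3 reads each and for counting error only. This order of the 4 genes held in each of the 8 libraries, and within each group the values of neighbours in that order did not overlap.

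**Figure D1:**
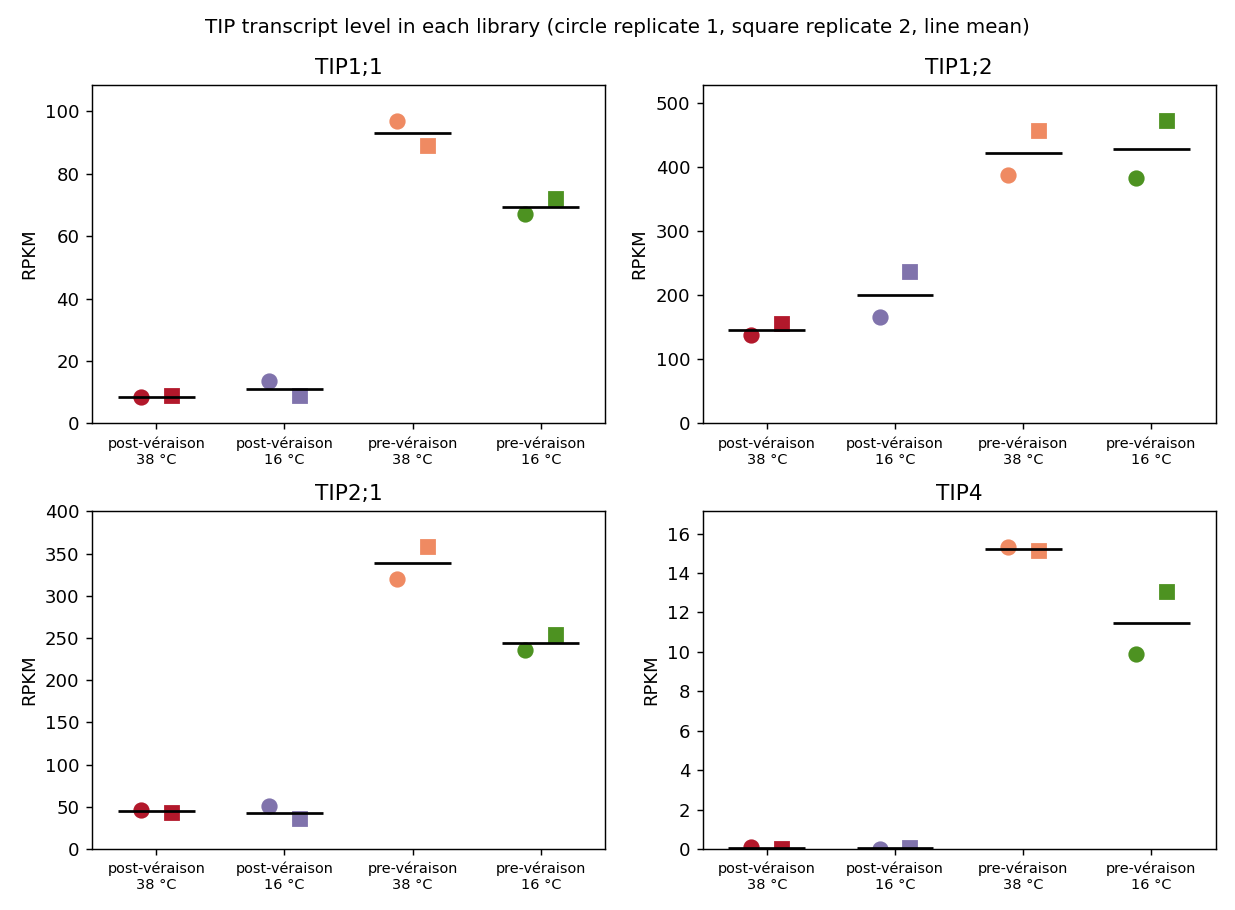
RPKM of the 4 TIPs (vertical axes, each from 0) in the 8 libraries, by stage and temperature, with 1 point per library (circle replicate 1, square replicate 2) and a line at the mean of each group (n = 2). Every TIP is lower in the 4 post-véraison libraries than in the 4 pre-véraison libraries, and TIP4 lies near 0 after véraison.

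The depth behind these values differed among the genes. TIP1;2 rested on 1648 to 5104 reads per library, delta-TIP on 520 to 4088, TIP1;1 on 87 to 860 and TIP4 on 69 to 154 reads before véraison. In the same order of genes, replicates differed by more than counting error in 4, 3, 1 and 0 of the 4 groups (chi-square of the reads of a pair above 3.84). For the most abundant TIPs the spread between replicates is thus wider than the number of reads alone would give. A low count is no sign of closer replicates, since small differences pass only at high depth. TIP4, with 1 read in each post-véraison pair, could not pass there. Over the 4 groups, the higher replicate was 1.03 to 1.56 times the lower for TIP1;1 and 1.13 to 1.43 times for TIP1;2.

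The comparison of stages asked how TIP transcripts differed between ripening and green berries. At 16 °C all 4 TIPs were lower after véraison. The mean of TIP1;2 was 201 ± 50.8 RPKM in post-véraison and 428 ± 62.4 RPKM in pre-véraison berries (SD, n = 2 each), a ratio of 0.47. Delta-TIP averaged 43.2 ± 10.6 RPKM in post-véraison and 245 ± 11.9 RPKM in pre-véraison berries, a ratio of 0.18, and TIP1;1 averaged 11.1 ± 3.42 and 69.5 ± 3.54 RPKM in post-véraison and pre-véraison berries, a ratio of 0.16 (SD, n = 2 each). For TIP4, 1 read in the unheated post-véraison libraries stood against 175 reads in the unheated pre-véraison ones. Per read of the RPKM denominator, its rate was 259 times as high in the pre-véraison berries, with an exact 95% interval of 46.0 to 10305 that covers counting error only.

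Tests used limma on log2(RPKM + 1) over the 16777 genes that reached 1 RPKM in 2 or more libraries, with Benjamini-Hochberg adjustment over all of them and an adjusted p under 0.05 as a call. At this pseudocount the differences of low genes are understated. The stage difference at 16 °C was -1.10 ± 0.17 (SE) log2 units for TIP1;2, -2.49 ± 0.15 for delta-TIP, -2.57 ± 0.16 for TIP1;1 and -3.58 ± 0.18 for TIP4. The limma adjusted p was 2.3e-04 for TIP1;2 and at most 3.3e-07 for the other three. TIP4 passed the filter only through the stage where it was high, so its call is a description and no support for a fall. Of all genes tested, 57% were called lower after véraison at 16 °C and 14.9% higher, so a call of lower was common. This split depends on the scaling: 33.5% were called lower and 32.1% higher with median-ratio scaling, which puts the median gene near 0, and 31.5% lower and 33.6% higher with quantile normalization. TIP1;2, delta-TIP and TIP1;1 were called lower with each of them, and the calls of TIP4 remain a description.

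The median difference of all tested genes in this comparison was -0.52 log2 units. Relative to it, TIP1;2 stood at -0.57, delta-TIP at -1.97, TIP1;1 at -2.05 and TIP4 at -3.05 log2 units. Taken in that order, a lower difference than theirs was found in 26.8, 5.74, 5.25 and 1.82% of all tested genes. With median-ratio scaling TIP1;2 was at -0.49 ± 0.19 (SE) log2 units with a limma adjusted p of 0.041. Delta-TIP and TIP1;1 were at -1.89 and -1.99 log2 units, with limma adjusted p-values of 6.6e-06 and 6.8e-06. The most abundant TIP thus lay nearer the middle of the transcriptome in its stage difference, and delta-TIP and TIP1;1 in its lower tail. The place of TIP4 is a description, since it was tested only through the stage where it was high. In bulk berries, fewer cells that express a gene and less RNA of it per cell cannot be told apart.

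**Figure D2:**
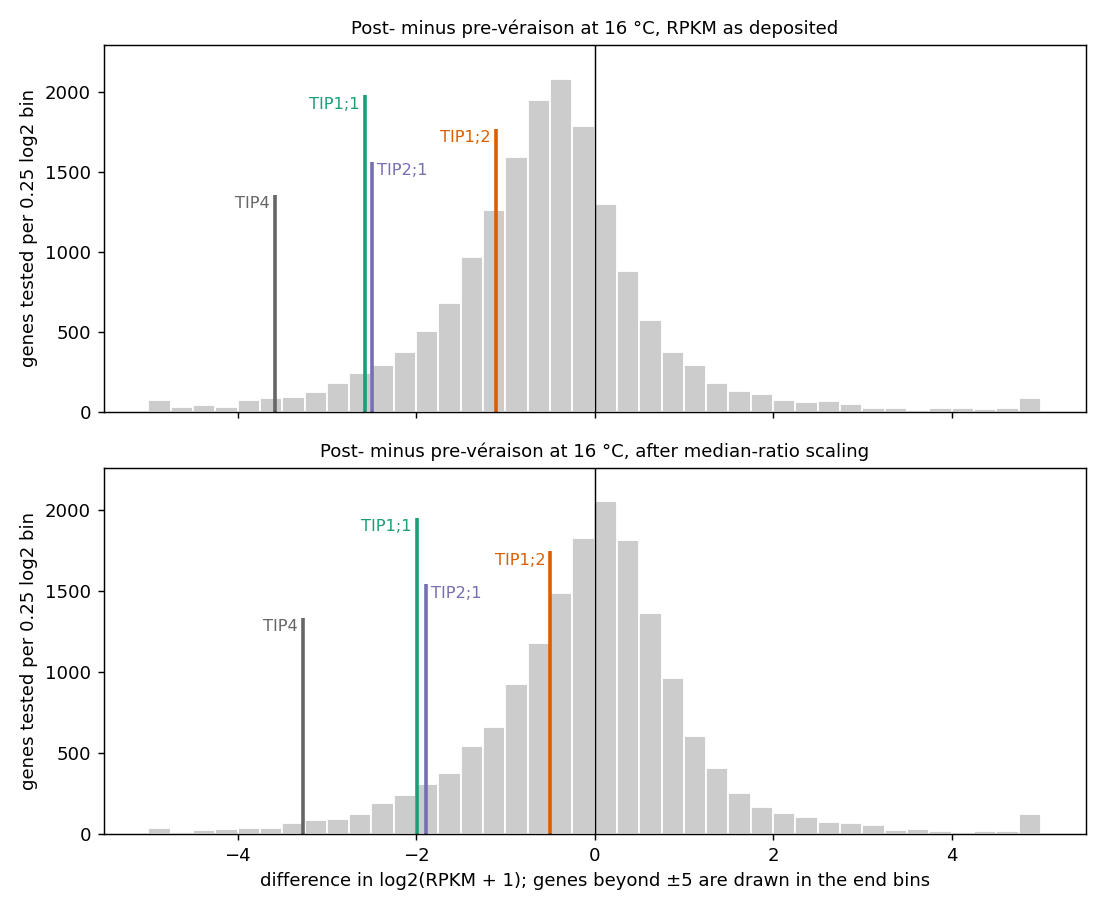
Distribution of the stage difference at 16 °C (post-véraison minus pre-véraison, log2(RPKM + 1), horizontal axis) over all tested genes, in bins of 0.25 log2 units (genes per bin, vertical axis), with each TIP marked by a line. The upper panel uses RPKM as deposited and the lower one median-ratio scaling, under which the highest TIP moves to -0.49 and the lowest, TIP4, to -3.27 log2 units.

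At 38 °C the same 4 genes were lower after véraison. TIP1;2 averaged 146 ± 12.9 RPKM in heated post-véraison and 422 ± 48.4 RPKM in heated pre-véraison berries, a ratio of 0.35 (SD, n = 2 each). Delta-TIP averaged 44.7 ± 2.64 RPKM in heated post-véraison and 339 ± 26.6 RPKM in heated pre-véraison berries, a ratio of 0.13. TIP1;1 averaged 8.52 ± 0.19 RPKM in heated post-véraison and 92.9 ± 5.57 RPKM in heated pre-véraison berries, a ratio of 0.092. TIP4 had 1 read in the heated post-véraison and 292 reads in the heated pre-véraison libraries. The log2 differences were -1.52 ± 0.17 for TIP1;2, -2.90 ± 0.15 for delta-TIP, -3.30 ± 0.16 for TIP1;1 and -3.96 ± 0.18 (SE) for TIP4. The limma adjusted p was 6.0e-08 to 2.4e-05 for the first 3, while the value of TIP4 is a description here too. Of all genes tested, 53% were called lower and 17.2% higher, and their median difference was -0.45 log2 units. With median-ratio scaling 34.6% were called lower and 32.3% higher, and with quantile normalization 31.6% lower and 34.1% higher. At both temperatures TIP1;1, TIP1;2 and delta-TIP were called lower under each of the 18 alternatives.

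The next comparison asked what 1 hour at 38 °C did to TIP transcripts in green berries. Delta-TIP was called higher, at 339 ± 26.6 RPKM in heated and 245 ± 11.9 RPKM in unheated pre-véraison berries (SD, n = 2 each), a ratio of 1.39. Its difference was 0.47 ± 0.15 (SE) log2 units, with a 95% interval of 0.14 to 0.80 and a limma adjusted p of 0.0496, just under the threshold. The call was lost under 5 of the 10 alternatives that keep all libraries of the comparison (limma adjusted p = 0.066 to 0.16) and whenever any 1 of the 4 pre-véraison libraries or of the heated post-véraison libraries was left out. The direction was the same in all of them, from 0.32 to 0.55 log2 units. Of all tested genes, 7.96% were called higher and 12.4% lower in this comparison. The 4 TIPs, with 1 call, are too few to be set against these shares. With median-ratio scaling these shares were 9% higher and 8.89% lower.

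TIP1;1 and TIP4 had differences of a like size that were not called. TIP1;1 averaged 92.9 ± 5.57 RPKM in heated and 69.5 ± 3.54 RPKM in unheated pre-véraison berries, a log2 difference of 0.41 ± 0.16 (SE, 95% interval 0.05 to 0.78, limma adjusted p = 0.11). It was called with only the 4 pre-véraison libraries in the fit (limma adjusted p = 0.042), in limma voom on whole reads (0.022), and without replicate 1 or replicate 2 of the unheated post-véraison berries (0.022 and 0.021). TIP4 averaged 15.2 ± 0.13 RPKM in heated and 11.5 ± 2.23 RPKM in unheated pre-véraison berries (SD, n = 2 each), a log2 difference of 0.39 ± 0.18 (limma adjusted p = 0.15).

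TIP1;2, in contrast, averaged 422 ± 48.4 RPKM in heated and 428 ± 62.4 RPKM in unheated pre-véraison berries, with overlapping values. Its log2 difference was -0.02 ± 0.17 (SE), with a 95% interval of -0.41 to 0.37 and a limma adjusted p of 0.96. It changed sign with median-ratio scaling (0.057) and was -0.27 with quantile normalization. The median of the 4 TIPs was 0.40 log2 units, where that of all tested genes was -0.09. The difference of TIP1;2 lay above that of 59.5% of all tested genes, and those of the other TIPs above 88.7 to 90.7%.

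After véraison, 0 of the 4 TIPs were called with heat in limma. At an unadjusted limma p under 0.05 the count was 1 (TIP1;2, lower), and limma voom called 0. TIP1;2 averaged 146 ± 12.9 RPKM in heated and 201 ± 50.8 RPKM in unheated berries of that stage (SD, n = 2 each). Its log2 difference was -0.44 ± 0.17 (SE), with a 95% interval of -0.82 to -0.05 before correction and a limma adjusted p of 0.43. It was -0.18 without replicate 2 of the unheated berries, which held 237 RPKM, and -0.70 without their replicate 1 (limma adjusted p = 0.82 and 0.13). TIP1;1 had a log2 difference of -0.32 ± 0.16 (limma adjusted p = 0.59). It was -0.02 without replicate 1 of the unheated berries and -0.61 without their replicate 2 (limma adjusted p = 1 and 0.079).

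Delta-TIP averaged 44.7 ± 2.64 RPKM in heated and 43.2 ± 10.6 RPKM in unheated berries of that stage (SD, n = 2 each), a log2 difference of 0.07 ± 0.15 (SE) with a 95% interval of -0.26 to 0.40. TIP4 had 1 read in each pair of libraries, too few for a comparison. Of all tested genes, 1.09% were called higher and 0.161% lower with heat after véraison, so few genes passed at this stage.

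A further test asked if heat acted alike on TIPs of ripening and green berries, as an interaction term (heat difference after véraison minus heat difference before it). The interaction was -0.73 ± 0.23 (SE) log2 units for TIP1;1, -0.42 ± 0.25 for TIP1;2, -0.40 ± 0.21 for delta-TIP and -0.38 ± 0.25 for TIP4. None of the 4 was called in limma (adjusted p = 0.097, 0.37, 0.30 and 0.42), nor by limma voom. An unadjusted p under 0.05 was found for 1 of them in limma and for 3 in limma voom. The 1 in limma was TIP1;1, with a 95% interval of -1.25 to -0.21 log2 units. It was called without replicate 2 of the unheated post-véraison berries (interaction -1.02, limma adjusted p = 0.0066). In all, 3.95% of tested genes had a called positive and 3.53% a called negative interaction (2.5% and 3.77% with median-ratio scaling). All 4 TIPs had a negative value where 36.1% of tested genes did (47.4% with median-ratio scaling), but for TIP4 the post-véraison part rests on single reads.

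**Figure D3:**
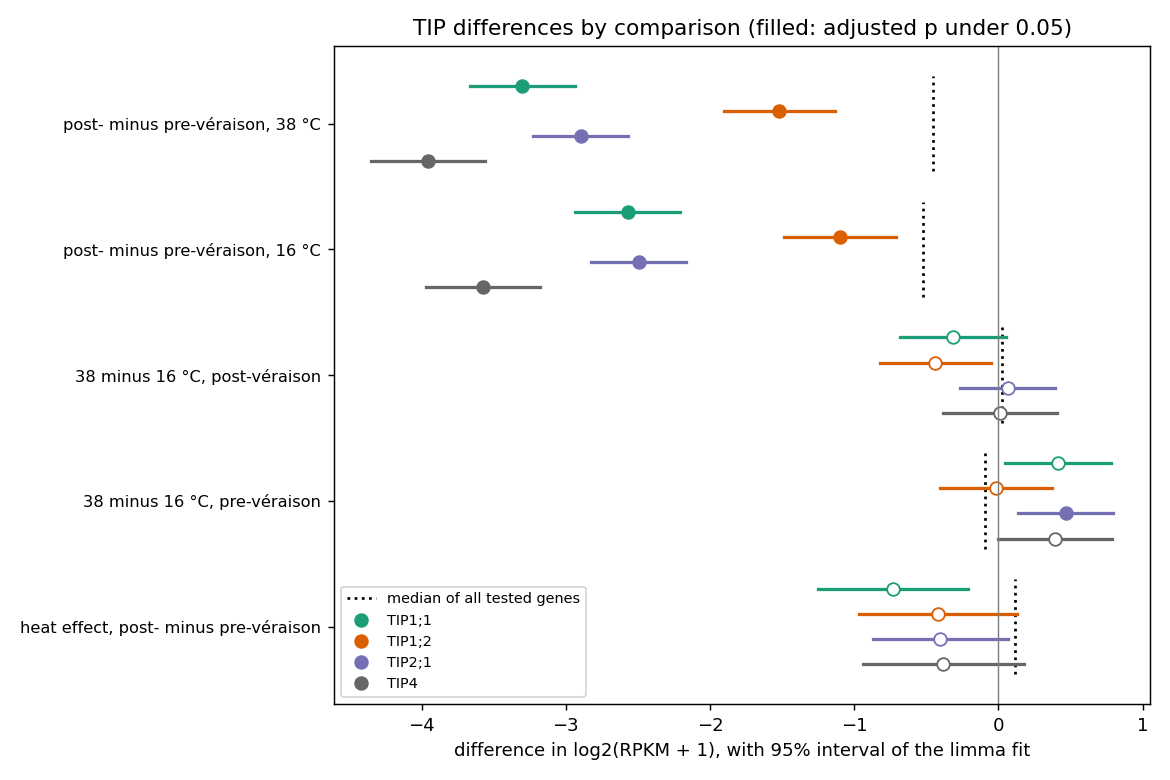
Differences in log2(RPKM + 1) of the 4 TIPs in 5 comparisons (points, horizontal axis) with the 95% intervals of the limma fit over 8 libraries. Filled points have an adjusted p under 0.05 and dotted lines mark the median of all tested genes. All stage differences are filled, those of TIP4 as a description, and among the heat differences delta-TIP before véraison is the filled one, at 0.47.

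Because the 4 TIPs differed by unequal amounts, the make-up of their summed transcripts differed between the stages. Any TIP gene without such a name in the gene table is not part of this sum. Summed over the 4 genes, they reached 192 and 207 RPKM in post-véraison berries at 38 °C and 230 and 282 RPKM in post-véraison berries at 16 °C, against 820.0 and 918 RPKM in pre-véraison berries at 38 °C and 697 and 810.0 RPKM in pre-véraison berries at 16 °C. TIP1;2 made up 71.4 and 75.1% of this sum in heated and 72.0 and 84.2% in unheated post-véraison berries, against 47.3 and 49.7% in heated and 55.1 and 58.3% in unheated pre-véraison berries. The share of delta-TIP was 24.2 and 20.7% in heated and 22.1 and 12.7% in unheated post-véraison berries, against 39.1 and 39.0% in heated and 33.9 and 31.2% in unheated pre-véraison berries. For both genes the shares did not overlap between the stages, nor between heated and unheated berries before véraison.

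Within the gamma type, TIP1;2 stood at 16.4 and 18.0 times the RPKM of TIP1;1 in heated post-véraison berries and at 12.2 and 27.3 times in unheated ones. In pre-véraison berries it stood at 4.0 and 5.13 times in heated and 5.73 and 6.56 times in unheated berries. The ratio was thus higher in every post-véraison library, and it was lower in heated than in unheated pre-véraison berries. These ratios within a library do not change when all genes of a library are divided by the same factor, as in median-ratio scaling. Quantile normalization can change them.

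**Figure D4:**
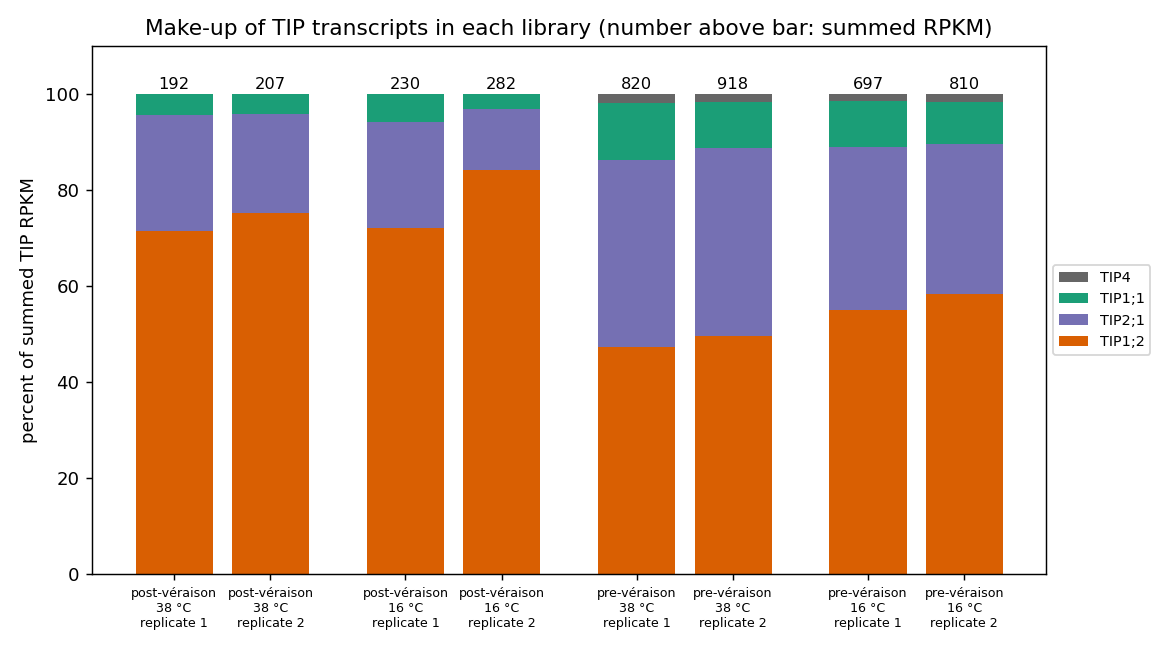
Percent of the summed TIP RPKM contributed by each TIP (stacked bars, vertical axis) in each of the 8 libraries, with the summed RPKM above each bar. TIP1;2 holds 71.4 to 84.2% in post-véraison libraries and 47.3 to 58.3% in pre-véraison libraries.

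The TIPs were then set beside the 6 plasma membrane aquaporins (PIPs) that carry a symbol, all of which were tested. PIP1;3 and PIP2;1, the PIPs with the highest levels, averaged 1008 and 542 RPKM in heated post-véraison, 932 and 576 RPKM in unheated post-véraison, 3264 and 717 RPKM in heated pre-véraison and 2718 and 666 RPKM in unheated pre-véraison berries. The TIPs made up 8.82 and 9.57% of the RPKM summed over these 4 TIPs and 6 PIPs in heated and 10.8 and 11.7% in unheated post-véraison berries, against 13.8 and 14.4% in heated and 13.4 and 15.4% in unheated pre-véraison berries. Every post-véraison library thus had a smaller TIP share than every pre-véraison library. Of the 6 PIPs, 4 were lower and 0 higher after véraison at 16 °C, and 6 were lower at 38 °C, where 57% and 53% of all tested genes were called lower. With median-ratio scaling the PIP counts were 4 lower and 1 higher at 16 °C, and 4 lower and 0 higher at 38 °C, against 33.5% and 34.6% of all tested genes lower. PIP1;1, called lower at both temperatures, had 0.10 to 0.50 RPKM after véraison. It passed the filter only through the pre-véraison libraries, so its calls are a description, as for TIP4. With heat before véraison, 1 PIP was higher and 2 were lower in limma, where 7.96% and 12.4% of all tested genes were. Limma voom called 2 higher and 2 lower. After véraison 0 were called in limma (and 0 by limma voom or without adjustment), where 1.09% of all tested genes were higher and 0.161% lower. The median PIP difference at 16 °C was -1.66 log2 units, that of the TIPs -2.53, and these medians include PIP1;1 and TIP4.

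Of other transporters of the vacuolar membrane, ABCC1, TMT2 and TMT3 were in the gene list. ABCC1, which carries anthocyanins into the vacuole, averaged 19.9 RPKM in heated and 17.9 RPKM in unheated post-véraison berries, against 137 RPKM in heated and 108 RPKM in unheated pre-véraison berries. TMT2, a sugar transporter of the vacuolar membrane, averaged 27.9 RPKM in heated and 25.7 RPKM in unheated post-véraison berries, against 47.4 and 39.5 RPKM in heated and unheated pre-véraison berries. Their stage differences at 16 °C were -2.53 ± 0.11 and -0.60 ± 0.12 (SE) log2 units (limma adjusted p = 3.2e-08 and 0.0014). Of all tested genes, 57% were called lower in that comparison. With median-ratio scaling 1 of these transporter genes was called lower, where 33.5% of all tested genes were. The TMT2 difference was then near that of the median gene. TMT3 was at or under 0.19 RPKM everywhere and was not tested. With heat, neither ABCC1 nor TMT2 was called at either stage in limma on RPKM as deposited. With median-ratio scaling ABCC1 was called higher before véraison, at 0.42 ± 0.11 (SE) log2 units (limma adjusted p = 0.031). Of all tested genes, 9% were called higher there. On RPKM as deposited, 7.96% of all tested genes were called higher before véraison and 1.09% after it. At an unadjusted p under 0.05, 1 of these transporter genes was higher before véraison and 0 after it. Limma voom called 1 of them before and 0 after it.

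Genes with a descriptive symbol were ranked by how closely their log2(RPKM + 1) followed each TIP over the 8 libraries. The ranking is a description: the libraries fall into 4 groups and mostly follow the stage, and 25.5 to 37.6% of all tested genes had a Pearson r of at least 0.9 with a given TIP. Delta-TIP was followed most closely by ABCC1 (r = 0.997), PIP1;3 (0.996) and TIP1;1 (0.994). For TIP1;1 the closest were delta-TIP (0.994), PIP2;2 (0.993) and ABCC1 (0.990), and for TIP4 ABCC1 (0.996), the proanthocyanidin gene LAR2 (0.995) and the phospholipase gene PLD (0.995). TIP1;2 had other neighbours: the oxylipin gene OPR3 (0.976), the germin-like gene GER6 (0.975) and the hexose transporter gene HT2 (0.975). Each TIP was compared with 249 named genes, and many genes without such a symbol followed more closely. Among all tested genes, the first named gene stood in place 11 for delta-TIP, 32 for TIP1;1, 112 for TIP4 and 31 for TIP1;2. Between TIP1;2 and each other TIP r was 0.914 to 0.946, and among those others 0.989 to 0.994.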

How the data were processed

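The deposited values are RPKM, made by the authors as 1 value per gene and library without pooling of replicates. Bowtie 0.12.7 and TopHat 1.2.0 are named in the submitters' processing notes. The genome build, the annotation and how reads were counted (tool, strand, multiple matches) were not given in the sources used here, so reads of close aquaporin paralogs may be shared among them. Gene IDs were named from RefSeq's gene table of assembly ASM3070453v1 (18647 of 25771 matched), used for names and gene order only.

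Library denominators, gene lengths and whole reads were worked out from the RPKM steps (tolerance 0.001 reads): each of the 20845 genes seen in 3 or more libraries gave whole numbers. Reads may be too small by a divisor common to a gene. Chi-square, exact binomial intervals and limma voom used these reads.

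Genes that reached 1 RPKM in 2 or more libraries were fitted as log2(RPKM + 1) with limma 3.58.1 in R 4.3.3 (4 group means over 8 libraries, intensity trend, 4 residual and 6.06 prior degrees of freedom, two-sided) and checked on simulated reads. P-values rest on the spread between the 2 libraries of a group, pooled over the 4 groups and drawn toward the intensity trend of all genes. A library outside a comparison can therefore change its p-value. Figures used Python 3.11.15 and matplotlib 3.10.9. Alternatives were pseudocounts of 0.1 and 5, no filter, a filter of 5 RPKM, median-ratio and quantile scaling, no trend, only the 4 libraries compared, a replicate block, limma voom and leaving out each library. The planned search for TIP relatives by protein sequence and for promoter motifs was not made.

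The 4 genes and the gene lists were chosen with earlier results of these data known. The text names the 4 TIPs, the 2 other aquaporins with the highest mean and the 3 named genes most like each TIP. Outside this rule, the members of the vacuolar membrane list are named as a list of its own, GRIP22 and HSP101 are named as markers of stage and heat, and TPC1, VGT2 and LOC100252049 were chosen after their symbols or values were seen.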

Additional observations from a re-analysis of the deposited data

How the results depend on the processing

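In both stage comparisons TIP1;1, TIP1;2 and delta-TIP were called lower under all alternatives, though sizes moved: TIP1;2 at 16 °C ran from -1.36 to -0.49 log2 units. TIP4, a description only, ran from -7.19 to -1.70. The 1 TIP called with heat before véraison (delta-TIP) was the least stable result. The count was 0 with a pseudocount of 0.1, no filter, quantile normalization, limma without trend or the replicate block, and 2 (with TIP1;1) with only the 4 libraries compared or limma voom. Leaving out single libraries gave 0 to 2. For the interaction, leaving out single libraries gave 0 to 1. The cause was not tested. The difference of TIP1;2 with heat before véraison changed sign with median-ratio scaling (0.057), and ran from -0.17 to 0.13 without single libraries. With quantile normalization it was -0.27. After véraison that of delta-TIP ran from -0.18 to 0.31 and that of TIP4 from -0.054 to 0.073 (-0.045 in limma voom). Over all genes, calls with heat numbered 3417 before véraison and 210 after it, and calls in the interaction 1254. Leaving out heated pre-véraison replicate 2 gave 2013 before véraison and 711 in the interaction. Leaving out heated post-véraison replicate 1 gave 104 after it and 696 in the interaction, and leaving out replicate 2 there 107 and 748. The 4 post-véraison libraries alone gave 36. Over all genes, replicate numbers did not pair the libraries (correlation of deviations -0.05 to 0.03 over 6 pairs of groups), and the block changed no other TIP call. TIP1;2, however, was higher in replicate 2 in every group. With the block, its unadjusted limma p went from 0.031 to 0.0054 with heat after véraison, and from 0.12 to 0.036 in the interaction. The limma adjusted p was then 0.21 in both. Over all genes the block gave 3157 calls with heat before véraison, 185 after it and 1057 in the interaction. Depth limits TIP4 after véraison to an upper bound.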

Other observations

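The unheated post-véraison libraries differed in opposite directions for different TIPs. Replicate 2 held more TIP1;2 than replicate 1 (237 against 165 RPKM) and less delta-TIP (35.7 against 50.8 RPKM) and TIP1;1 (8.68 against 13.5 RPKM), each with a chi-square of the reads above 3.84 (150, 33.0 and 11.3). TIP1;2 was also the higher in replicate 2 in each of the other groups.

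The genes on either side of each TIP in the gene order of the reference table, looked up after the values had been seen, did not share the pattern throughout. Of 8 nearest protein-coding neighbours, 7 were in the files and 5 were tested, of which 4 were lower and 1 was higher after véraison at 16 °C, where 57% and 14.9% of all tested genes were. With median-ratio scaling 3 of the 5 were lower and 1 was higher, where 33.5% and 32.1% of all tested genes were. The 1 that was higher, LOC100252049 (0.50 log2 units, limma adjusted p = 0.011), lies next to TIP1;2. It was also the 1 neighbour called with heat before véraison, at -0.61 log2 units (limma adjusted p = 0.016).

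Vacuolar channel and transporter genes TPC1 and VGT2, added after the symbols had been seen, were lower after véraison at 16 °C, at -0.51 and -1.36 log2 units (limma adjusted p = 0.0086 and 5.8e-05). In that comparison 57% of all tested genes were called lower, and their median difference was -0.52 log2 units, near that of TPC1. With median-ratio scaling 1 of the added genes was called lower, where 33.5% of all tested genes were. The other, TPC1, was at 0.08 log2 units. At 38 °C TPC1 was not called (limma adjusted p = 0.062) and VGT2 was called lower (9.8e-05), where 53% of all tested genes were lower.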
